A study of Danio rerio with 12 samples.

Results

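Zebrafish larvae homozygous for the waw1 allele of mia40a were compared between 8 and 5 days post fertilization (dpf). Of the 12 RNA-Seq libraries of the study, 3 came from mutants (Mut) at 8 dpf and 3 from Mut at 5 dpf. The 6 others, used here as the background of age, came from wild-type (WT) siblings, 3 at 8 dpf and 3 at 5 dpf. Each library held the RNA of a pool of 5 whole larvae on the AB background. All larvae were genotyped before sampling, and those sampled at 8 dpf had been given food from 5 dpf. Larvae of the 2 ages therefore differ in feeding as well, and the authors normalised the 2 ages separately, so that age, feeding and normalisation cannot be told apart in any change between them. At 8 dpf they had also removed a batch effect. No label names the libraries of that batch, and by the values Mut 3 and WT 3 of that age formed a batch of their own. That removal tied the level of Mut 3 to that of WT 3, so the place of Mut 3 among the Mut pools of 8 dpf is not its own.

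Mia40 (symbol chchd4a for the zebrafish mia40a) is an oxidoreductase of the mitochondrial intermembrane space. It binds small cysteine-rich proteins as they enter mitochondria and introduces the disulfide bonds that trap and fold them there, among them subunits of the respiratory chain and the small Tim chaperones. Zebrafish carry a paralog, mia40b (chchd4b). Between 5 and 8 dpf a zebrafish larva uses up its yolk and turns to food taken up through the intestine. The liver, intestine and exocrine pancreas process yolk lipids and food, and the skin and skeleton still grow over these days.

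The change was described for 18606 Ensembl identifiers (ids) of the 20963 with a value at both ages, those with a mean of at least 20 in the Mut libraries at each age. Each library was rescaled to the same total over these ids, and the change is the difference between the means of log2(rescaled value + 1) at 8 and at 5 dpf. An id is said to have fallen or risen where it was at least 4-fold lower or higher at 8 dpf and the 3 libraries of one age did not overlap the 3 of the other. No test was made between the ages, since they come from separately normalised tables. What could be tested is whether the change in Mut differed from the change in WT, as the difference between log2 Mut over WT at 8 dpf and at 5 dpf, each taken within its table. Replicate libraries were alike, with a Pearson correlation of log2 values across ids of 0.988 to 0.992 among the Mut libraries of 8 dpf and 0.989 to 0.992 among those of 5 dpf. The deposited values of a Mut library summed to between 24185532 and 25003708 at 8 dpf, and to between 16997847 and 18177809 at 5 dpf.

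The targeted gene itself changed little with age in the mutants. The rescaled values of chchd4a (ENSDARG00000033376) were 334.5, 349 and 377 in Mut at 8 dpf, against 331, 307 and 308.5 in Mut at 5 dpf, a log2 change of 0.16. In WT they were 406, 368.5 and 352 at 8 dpf, against 97.8, 113 and 113.5 at 5 dpf, a log2 change of 1.79. The 3 WT libraries of 5 dpf were thus the only low ones of the 12, and the other 9 lay close together. The change in Mut was smaller than that in WT by a log2 difference of -1.60 ± 0.16 (SE; limma, adjusted p = 1.01e-05). For the paralog chchd4b (ENSDARG00000040707) the log2 change was 0.40 in Mut and 0.88 in WT, and the difference did not pass the threshold (limma, adjusted p = 0.183). The mutation does not remove the transcript, so these levels check no label.

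In the mutants 1053 of the 18606 ids (5.66%) passed 4-fold with no overlap, and nearly all of them in one direction: 1019 (5.48%) fell and 34 (0.183%) rose. The median log2 change over all ids was -0.25 in Mut and -0.23 in WT. This centre depends on the rescaling, and without it the median in Mut was 0.24 and 543 ids fell while 94 rose, so that the share of falls among the changed ids was 85.2% in place of 96.8%. Without a minimum mean 1282 ids fell and 233 rose, and that share was 84.6%. The lowest deposited value at 8 dpf was 4, while some at 5 dpf were 0. In that setting the 2 ages were therefore not cut alike, and how far this set the share was not tested. The ids that fell had a median rescaled value of 62.6 at 8 dpf, against 434.6 at 5 dpf. The fall closest to the limit was slc9a3r1, with a log2 change of -2.00 to 2 decimals, and the id just outside was si:dkey-240h12.4, with -1.999. Among rises the closest inside was RGS2, with a log2 change of 2.01, and just outside was zgc:113443, with 1.99. Leaving out any single Mut library gave 971 to 1080 falls and 29 to 38 rises.

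WT larvae changed to a like extent over the same days: 1021 ids (5.49%) fell and 73 (0.392%) rose. Of these, 745 falls were shared by both genotypes, or 73.1% of the falls in Mut and 73.0% of those in WT. Of the rises 20 were shared, or 58.8% of the rises in Mut and 27.4% of those in WT. In 1004 of the 1019 ids that fell in Mut, all 3 WT libraries of 8 dpf also lay below all 3 of 5 dpf. The share of all ids with that order in WT was not computed, and in Mut it was 50.4%. Across ids the changes in Mut and in WT had a Pearson correlation of 0.901 and a Spearman correlation of 0.883, given as a description, since ids are not independent replicates and the 2 genotypes share each table's normalisation.

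**Figure D1:**
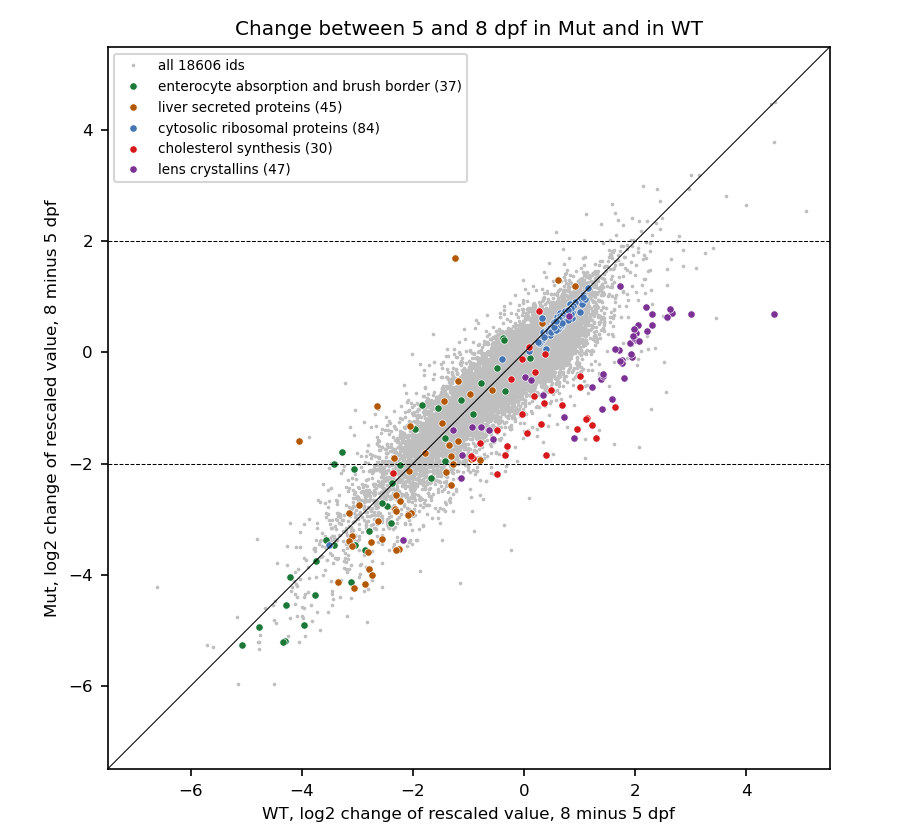
Log2 change of the rescaled value, 8 minus 5 dpf, in Mut (vertical axis) against WT (horizontal axis), each point an id and 5 gene lists in colour. Broken lines mark 4-fold in Mut and the solid line equal change. Enterocyte and liver genes lie far down along the line in both genotypes, while most cholesterol synthesis and crystallin genes lie below it.

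Genes of intestinal absorption were among those that fell furthest. Of 37 brush-border and absorption genes used, 23 (62.2%) fell and 0 rose, where 5.48% and 0.183% of all ids did. Their median log2 change was -2.35 in Mut and -2.56 in WT. The 100 largest falls in Mut included 10 of them. The gene of aminopeptidase N, anpepb (ENSDARG00000103878), which trims peptides at the brush border, had rescaled values of 214, 209.5 and 135 in Mut at 8 dpf, against 7374, 6873 and 6038 in Mut at 5 dpf. The 2 sets were far apart, and the fall was 36.8-fold. In whole larvae, fewer cells of a type and less RNA per cell cannot be told apart, here and in all that follows.

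NPC1L1, whose product takes up sterols from the gut, had 35.8, 27.9 and 17 in Mut at 8 dpf, against 1183, 973.5 and 840.3 in Mut at 5 dpf. Its log2 change was -5.21 in Mut and -4.34 in WT. In NPC1L1 and anpepb all 3 libraries of 8 dpf were low, and the library Mut 3, whose level depends on the batch removal, was the lowest. The largest fall with a gene symbol was that of slc26a3.2, of the family of anion exchangers, with 31.4, 24.5 and 9.4 in Mut at 8 dpf and 1386.5, 1351 and 1135 in Mut at 5 dpf, or 62.9-fold. Its log2 change in WT was -4.50, and the difference did not pass the test (limma, adjusted p = 0.17). None of the 37 genes differed in change between Mut and WT by the test, where 8.09% of all 20598 ids tested did. The peptide carrier slc15a1b is outside this count because its mean at 8 dpf was below 20, with deposited values of 34, 11 and 11 in Mut at 8 dpf and 1250, 1297 and 1424 in Mut at 5 dpf.

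Lipoprotein genes fell with them. Of 21 genes of lipoproteins and lipid transport 13 (61.9%) fell, where 5.48% of all ids did, and 0 rose. Their median was -2.35 in Mut and -1.46 in WT, and 7 fell without rescaling. The apolipoprotein B gene apobb.1 (ENSDARG00000022767), which encodes the structural protein of yolk-derived and intestinal lipoproteins, had 2834, 1661 and 1426 in Mut at 8 dpf, against 71607, 63182 and 59763 in Mut at 5 dpf. Its mean was 1974 ± 754 at 8 dpf and 64851 ± 6096 at 5 dpf (SD, n = 3 each). It stood at rank 1436 of all ids at 8 dpf and at rank 25 at 5 dpf, and no other of the 100 ids of highest value at 5 dpf stood so low at 8 dpf. Ranks are of rescaled values, which are not divided by transcript length, so a gene is compared only with itself.

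Genes that act on the lipid load of these particles fell as well. The transfer protein gene mtp, needed to load lipid onto apolipoprotein B, had 107, 108 and 75 in Mut at 8 dpf and 1420.3, 1362 and 1404 in Mut at 5 dpf. DGAT2, for the last step of triglyceride synthesis, had 26.2, 38.9 and 29.8 in Mut at 8 dpf and 1411.5, 1225 and 1107 in Mut at 5 dpf, a log2 change of -5.27 in Mut and -5.71 in WT. For pla2g12b, which acts in lipoprotein secretion, the log2 change was -3.99 in Mut and -2.95 in WT, and for apoa4b.1, another apolipoprotein, -3.18 in Mut and -2.53 in WT. The fall of pla2g12b, mtp, apobb.1 and apoa4b.1 was deeper in Mut than in WT by value, yet none of the 4 differences passed the test (limma, adjusted p = 0.089, 0.0889, 0.199 and 0.174).

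Most genes of secreted liver proteins were lower at 8 dpf. Of 45 genes 26 (57.8%) fell, where 5.48% of all ids did, and 0 rose. With no overlap 41 of the 45 were lower and 4 higher at 8 dpf, where 50.4% and 22.1% of all ids were. The median of the 45 was -2.39 in Mut and -2.24 in WT. The serum protein gene itih2, an inter-alpha-trypsin inhibitor heavy chain, had 96.9, 130.1 and 95.4 in Mut at 8 dpf, against 2021, 1842 and 1788 in Mut at 5 dpf, or 17.5-fold less. The precursor of angiotensin, agt, had 148.5, 115 and 149 in Mut at 8 dpf and 1845, 2242 and 2222 in Mut at 5 dpf. Both sets of 8 dpf lay far below those of 5 dpf. Some other liver genes did not fall past 4-fold. The liver fatty acid binding protein gene fabp10a, a standard hepatocyte marker, had 7968, 10525 and 9476 in Mut at 8 dpf and 6105, 6671.5 and 6425 in Mut at 5 dpf, with no overlap and the 8 dpf libraries higher. The fetuin gene fetub (ENSDARG00000053973) had 10008, 10943 and 9313 in Mut at 8 dpf and 16396, 17396 and 16648 in Mut at 5 dpf, a log2 change of -0.74. The transferrin gene tfa was lower, with deposited values of 5903, 8460 and 6799 in Mut at 8 dpf and 15715, 19129 and 19753 in Mut at 5 dpf. Another fetuin id, FETUB (ENSDARG00000070918), did fall, with a log2 change of -4.18 in Mut and -2.87 in WT. Thus the fall past 4-fold was not shared by all hepatocyte transcripts. In Mut fabp10a was higher at 8 dpf, and so was ahsg1, whose values are given further below.

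Bile acid and xenobiotic enzymes, also hepatic for the most part, followed the falling group. Of 55 genes of xenobiotic, retinoid and glutathione metabolism 17 (30.9%) fell, where 5.48% of all ids did, and 0 rose. Their median was -1.42 in Mut and -1.30 in WT, and 11 fell without rescaling. CYP7A1 (ENSDARG00000069018), the rate-limiting enzyme of bile acid synthesis, had 27.1, 33.8 and 17.9 in Mut at 8 dpf and 456, 531 and 651 in Mut at 5 dpf. For cyp8b1, which sets the kind of bile salt made, the values were 19.2, 28.7 and 25.6 in Mut at 8 dpf and 534, 577.5 and 525 in Mut at 5 dpf. By the test 9 of the 55 (16.4%) had a lower and 4 a higher change in Mut than in WT, where 6.72% and 2.07% of all ids used did. Neither CYP7A1 nor cyp8b1 differed (limma, adjusted p = 0.807 and 0.0824). The bile salt export pump gene abcb11b is not one of the 55 and was chosen after its values were seen. It had 32.3, 49 and 43.4 in Mut at 8 dpf and 1484, 945 and 1249 in Mut at 5 dpf, a log2 change of -4.84, against -2.83 in WT. This fall was deeper in Mut by -2.00 ± 0.30 (SE; limma, adjusted p = 0.000908).

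Digestive enzymes of the exocrine pancreas fell, with a wide spread at 8 dpf. Of 26 genes 16 (61.5%) fell, where 5.48% of all ids did, and 0 rose, with a median of -2.41 in Mut and -2.35 in WT. By the test 0 of the 26 differed between the genotypes in their change, where 8.09% of all ids tested did. The trypsin gene try had 5286.5, 2754 and 1743 in Mut at 8 dpf, against 14466, 13747 and 17309 in Mut at 5 dpf. For the carboxypeptidase gene cpa5 the values were 896, 581 and 359 in Mut at 8 dpf and 6471, 6174 and 7605.5 in Mut at 5 dpf, and for the chymotrypsinogen gene ctrb1 3356, 1664 and 1011 in Mut at 8 dpf and 15831.5, 14913 and 17415 in Mut at 5 dpf. In all 3 genes the order at 8 dpf was the same, with the library Mut 1 highest and Mut 3 lowest. The level of Mut 3 there depends on the batch removal. The 3 genes also shared an order at 5 dpf, with Mut 3 highest and Mut 2 lowest. Taken library by library, the median change of the list ran from -3.18 to -1.735. Elastase ela2l did not separate the ages, with 3336, 1911 and 940.4 in Mut at 8 dpf and 3623, 2973 and 4868 in Mut at 5 dpf. The level was lower in Mut than in WT at both ages in 24 of the 26 genes, and in 4592 of all 18606 ids. The list's median log2 Mut over WT was -1.105 at 8 dpf and -1.28 at 5 dpf.

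Enzymes of gluconeogenesis fell in both genotypes. Of 41 genes of fasting, fat oxidation and gluconeogenesis 5 (12.2%) fell, where 5.48% of all ids did, and 0 rose. These 5 were pck2, fbp1b, g6pca.2 and pck1, whose products catalyse steps of glucose synthesis, and KLF15, a transcription factor of that programme. Cytosolic PEP carboxykinase, pck1, had 1817, 1295 and 1046 in Mut at 8 dpf and 6866, 8103 and 8441 in Mut at 5 dpf. Its log2 change was -2.52 in Mut and -2.13 in WT, and for fbp1b -3.11 in Mut and -2.84 in WT. None of these 5 differed in change from WT by the test (limma, adjusted p between 0.121 for g6pca.2 and 0.623 for fbp1b).

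Skin genes fell next. Of 37 epidermal and keratin genes 16 (43.2%) fell, where 5.48% of all ids did, and 0 rose. At 8 dpf 35 were lower with no overlap, where 50.4% of all ids were. Without rescaling 10 of the 37 fell. The keratin gene krt1-19d had 57.6, 84.5 and 78.4 in Mut at 8 dpf, against 4737, 4459.8 and 4659 in Mut at 5 dpf. The fall was 62.8-fold. The abundant keratin gene krt4 had 30897, 30167 and 23804 in Mut at 8 dpf, against 175483, 179073 and 172587 in Mut at 5 dpf, and stood at rank 96 at 8 dpf and rank 5 at 5 dpf. Its log2 change was -2.64 in Mut and -2.41 in WT.

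Matrix genes of cartilage, bone and connective tissue did the same. Of 50 genes 21 (42%) fell and 1 rose, where 5.48% and 0.183% of all ids did. Their median was -1.735 in Mut and -1.80 in WT. With size factors from the median of ratios in place of equal totals 11 of the 50 fell, and without rescaling 8. Collagen VI, col6a1, had 228, 190.1 and 203 in Mut at 8 dpf and 3786, 3391 and 3332 in Mut at 5 dpf, or 16.9-fold less. The fibronectin gene fn1b had 734, 788 and 629.5 in Mut at 8 dpf and 10679, 7701 and 8083 in Mut at 5 dpf. In both genes the replicates lay close together, and the log2 changes in Mut and WT were close, at -4.08 and -4.03 for col6a1 and -3.61 and -3.50 for fn1b. Collagen X, col10a1a, a marker of hypertrophic cartilage and early bone, was uneven, with 20.1, 758 and 65.6 in Mut at 8 dpf and 2274, 1891 and 1611 in Mut at 5 dpf. The library Mut 2 of 8 dpf was the high one.

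Smaller shares of other tissue lists fell, where 5.48% of all ids did. Of 30 innate immunity and complement genes 9 fell, with the neutrophil peroxidase gene mpx at a log2 change of -2.93. Among these 9, cfb and c3a.1 were also counted with the liver genes, and csf1ra with the pigment cell genes. Of 30 pigment cell genes 5 fell, with the purine enzyme gene xdh at -4.11. A list of 15 ids of globins and some other genes had 3 falls, with the globin gene hbae3 at -2.48. The members of largest change in it were SLC4A1, hbae3, tfr1a and hbae1.3, so not all of these are globins. In WT the changes of these were -2.74 for mpx, -4.13 for xdh and -2.43 for hbae3. Without rescaling 5 genes of the innate immunity list and 1 of the globin list fell. In the retina 22 of 29 rod and 20 of 29 cone phototransduction genes were lower at 8 dpf with no overlap. Higher were 0 of the rod and 2 of the cone genes. Of all ids 50.4% were lower and 22.1% higher. Of 44 neuronal genes 14 were lower and 22 higher with no overlap, with a median log2 change of 0.11 in Mut. Of 12 myelin genes 7 were lower and 3 higher. Past 4-fold were 1 rod gene and 0 of the other 3 lists, where 5.48% of all ids fell. The rod list's fall was rcvrna, a recoverin gene, with 327.5, 326 and 265 in Mut at 8 dpf and 1584.5, 1392 and 1518 in Mut at 5 dpf.

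**Figure D2:**
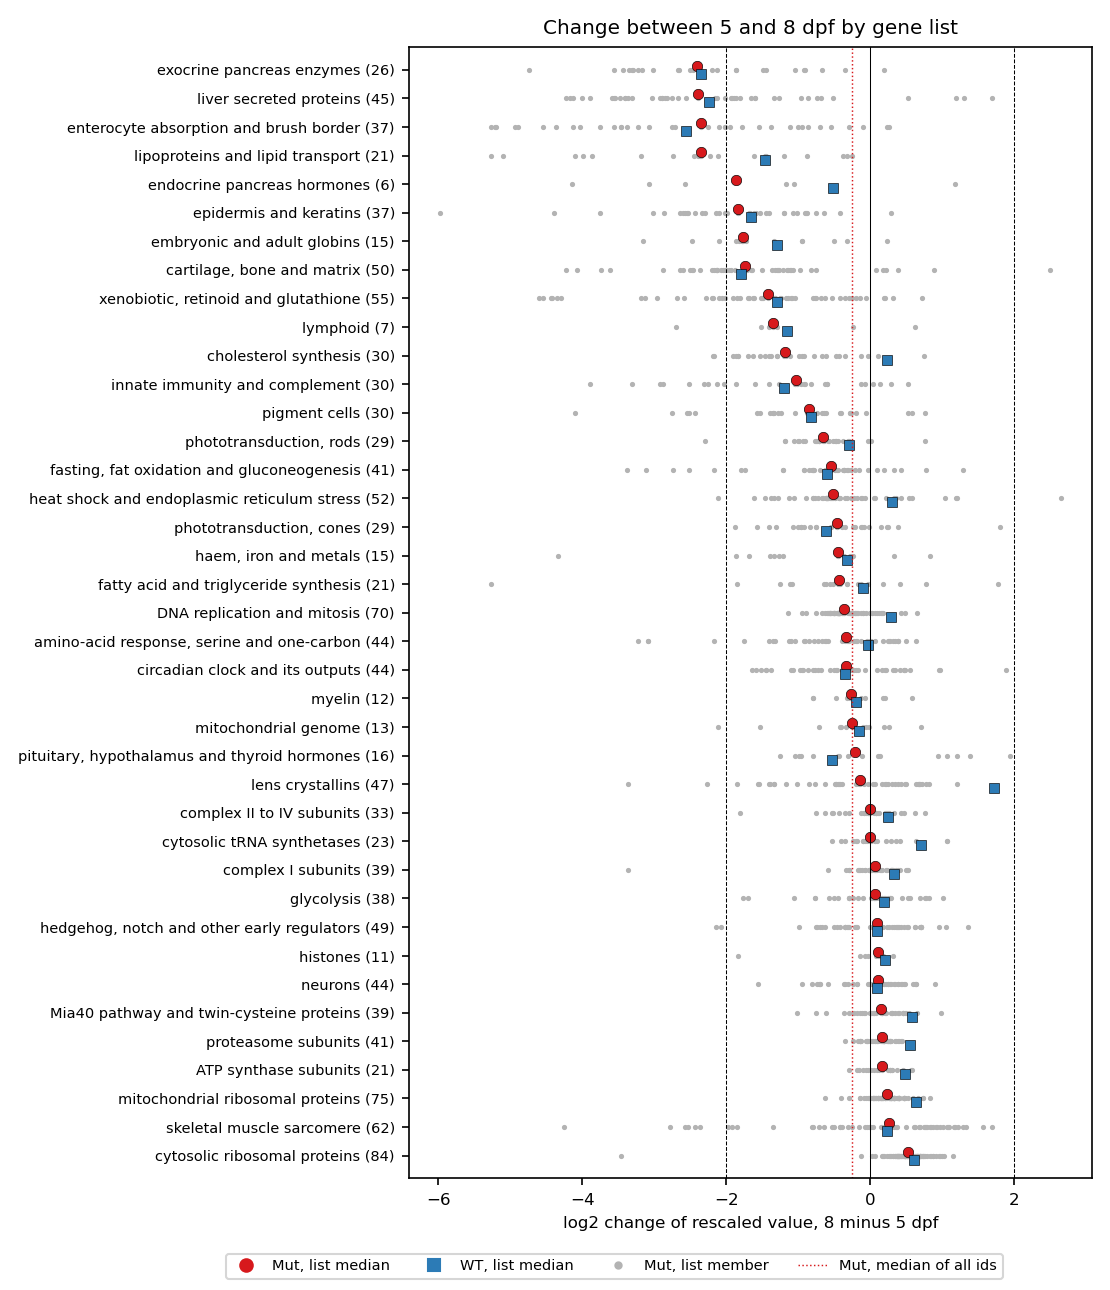
Log2 change of the rescaled value, 8 minus 5 dpf (horizontal axis), for the members of 39 gene lists in Mut (grey points), with the list's median in Mut (circles) and in WT (squares) and the number of ids used in brackets. Broken lines mark 4-fold and the dotted line the median of all ids in Mut. The circles of digestive organ lists lie near or beyond -2 beside their squares, and the widest gaps between circle and square are those of the crystallins, cholesterol synthesis and endocrine hormones.

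Among the most abundant transcripts some muscle genes stood higher in rank at 8 dpf. The 10 ids of highest value shared 7 members between the ages, and the 100 highest shared 78. Alpha-actin, actc1b, stood first at 8 dpf with 472134, 514136 and 497032.5 in Mut, against 228669, 271757 and 280342 in Mut at 5 dpf, where it was at rank 2. The mitochondrial cytochrome c oxidase gene mt-co1 was at rank 2 at 8 dpf and rank 1 at 5 dpf. Fast myosin light chain MYL11 moved to rank 4 at 8 dpf, against 8 at 5 dpf, and the myosin heavy chain gene myhz1.1 to 5 at 8 dpf, against 9 at 5 dpf. Neither passed 4-fold, with log2 changes of 1.34 and 1.29.

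Of 62 sarcomere genes 33 were higher at 8 dpf with no overlap, where 22.1% of all ids were, and 0 of these passed 4-fold. The median rank of the list was 524 at 8 dpf and 510 at 5 dpf. Of the 62, 6 (9.68%) fell, where 5.48% of all ids did, or 3 without rescaling. Among the 6 was the troponin I gene tnni2a.1, with 41, 47.3 and 46.8 in Mut at 8 dpf and 763, 943 and 945.5 in Mut at 5 dpf. This was a log2 change of -4.26, against -2.82 in WT, a difference of -1.42 ± 0.23 (SE; limma, adjusted p = 0.000996). The myosin heavy chain gene myhb also fell, with the library Mut 2 of 8 dpf far above the others, at 90.8, 1082 and 174 in Mut at 8 dpf and 1420.3, 2226 and 1761 in Mut at 5 dpf. Of 84 cytosolic ribosomal protein genes 81 were higher at 8 dpf with no overlap, at a median of 0.525 in Mut and 0.615 in WT, and their median rank was 91 at 8 dpf and 127 at 5 dpf. The exception that fell was rps11l, a paralog of low level, with 71.6, 119 and 92 in Mut at 8 dpf and 982, 1064 and 1039 in Mut at 5 dpf.

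The 34 rises were few, and their number depends on the filter, with 233 rises where no minimum mean was set. In that setting very low values remained at 5 dpf but not at 8 dpf. Of the 34, 26 had a mean below 100 in Mut at 5 dpf, a share that was not computed for all ids. The largest of the 34 were those of 2 ids named only by clone, si:dkey-238c7.13 (ENSDARG00000092191) and si:ch73-110p20.1 (ENSDARG00000095236). For si:ch73-110p20.1 the values were 638, 556 and 599.7 in Mut at 8 dpf and 21.3, 26.9 and 30.7 in Mut at 5 dpf, a log2 change of 4.47 in Mut and 4.45 in WT. For si:dkey-238c7.13 the log2 change was 4.51 in Mut and 4.52 in WT. The hormone gene STC1 (stanniocalcin, which lowers calcium uptake in fish) had 1056, 653 and 949.7 in Mut at 8 dpf, against 82.7, 98.4 and 103 in Mut at 5 dpf, or 9.13-fold more. Every library of 8 dpf lay above every library of 5 dpf in each of these 3 genes.

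The most abundant of the large rises were those of 2 genes of response to activity and stress. NPAS4 (ENSDARG00000055752), a transcription factor gene induced by neuronal activity, had 6326, 6262 and 6538 in Mut at 8 dpf, against 769.7, 1005 and 1139 in Mut at 5 dpf. The heat-shock protein gene hsp90aa1.1, a chaperone of muscle myosin in zebrafish, had 6754, 7336 and 9733 in Mut at 8 dpf, against 1050.5, 1403 and 1309.5 in Mut at 5 dpf. In WT the values of hsp90aa1.1 were 11637, 10167 and 7912 at 8 dpf and 583, 600.3 and 650.2 at 5 dpf. It rose in both genotypes, by less in Mut, with a difference of -1.32 ± 0.23 on the log2 scale (SE; limma, adjusted p = 0.00225). The same was seen for si:ch211-199o1.2, with log2 changes of 2.55 in Mut and 5.07 in WT (difference -2.49 ± 0.43, SE; limma, adjusted p = 0.00148). These were the only 2 of the 34 rises whose change differed from WT by the test.

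Others among the 12 largest rises were zgc:172053 (3.19 on the log2 scale), the Notch target her4.3 (2.99), prorsd1 (2.95) and si:ch73-171a6.2 (2.82). The intermediate filament genes vimr1 and ngs and the matrilin gene matn3a of cartilage rose too, but varied together among pools. The values of ngs were 660.3, 461 and 318 in Mut at 8 dpf and 86.5, 45.7 and 89.8 in Mut at 5 dpf. In WT they were 88.1, 1587 and 655 at 8 dpf and 118, 527 and 54.3 at 5 dpf. Those of vimr1 were 535, 331 and 256 in Mut at 8 dpf and 51.4, 29.3 and 62.6 in Mut at 5 dpf, with 134, 1016.5 and 610.5 in WT at 8 dpf and 58.4, 321 and 29.6 in WT at 5 dpf. In matn3a the values were 379, 243 and 192.5 in Mut at 8 dpf and 56.4, 14.1 and 113.5 in Mut at 5 dpf. At 8 dpf all 3 genes were highest in Mut 1 and lowest in Mut 3, and the WT libraries of ngs and vimr1 overlapped between the ages.

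**Figure D3:**
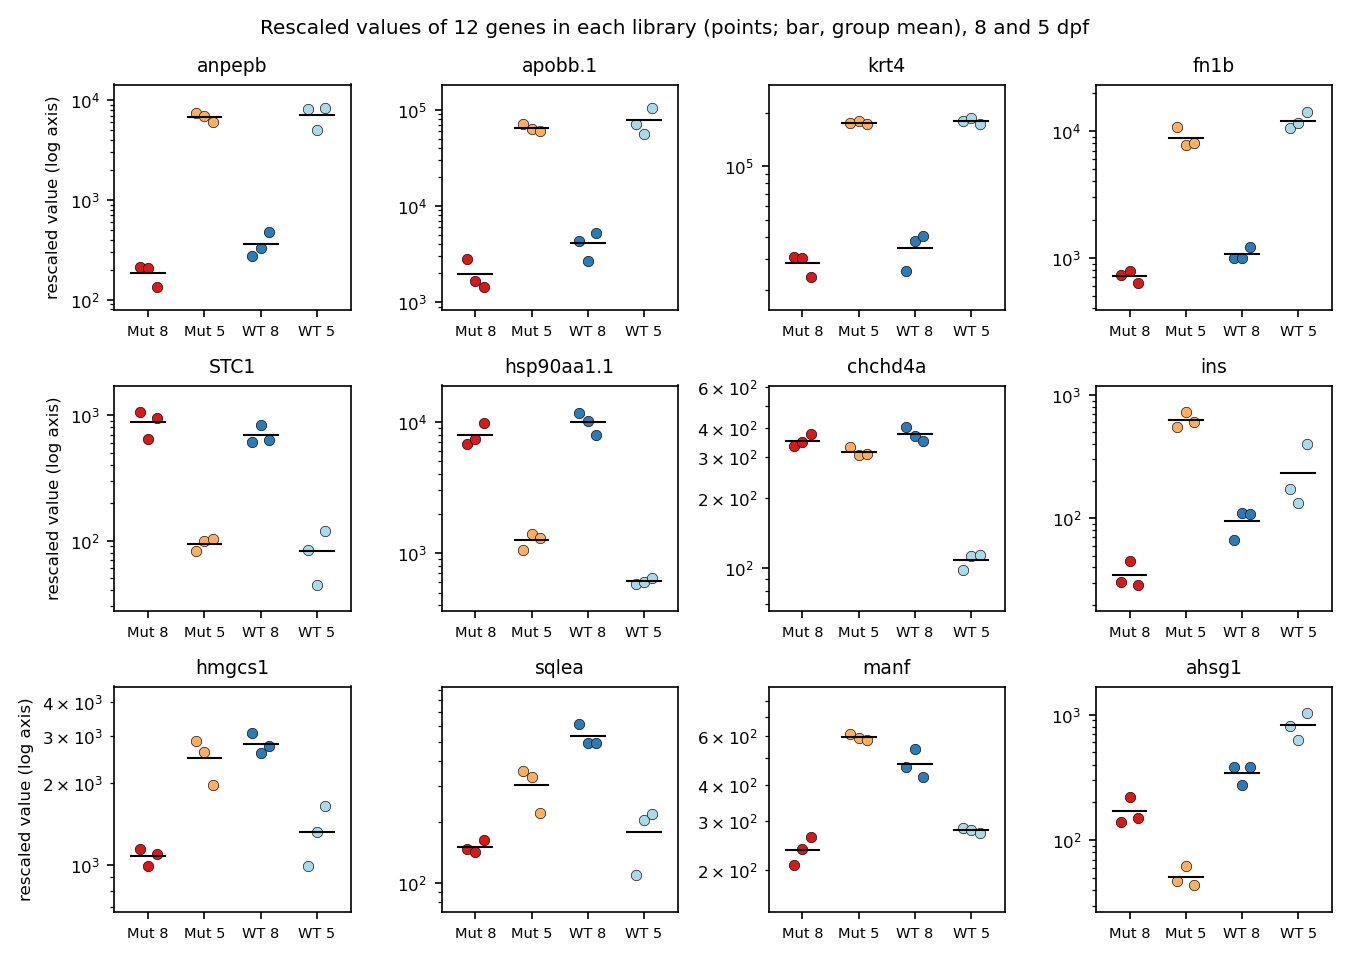
Rescaled value (log axis) of 12 genes in each of the 12 libraries, with points for libraries and a bar for the group mean, for Mut at 8 dpf, Mut at 5 dpf, WT at 8 dpf and WT at 5 dpf. The first 4 genes are low at 8 dpf and the next 2 high in both genotypes, while in hmgcs1, sqlea and manf the Mut libraries of 8 dpf lie below those of 5 dpf and the WT libraries of 8 dpf above those of 5 dpf.

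The test of whether the change in Mut differed from that in WT was made on 20598 ids. Each of its 2 contrasts lies within one table, so a factor that the separate normalisation or age put on both genotypes alike drops out. Of these ids 1666 (8.09%) differed (limma, Benjamini-Hochberg adjusted), and 4488 had an unadjusted p under 0.05. The number was 1055 without the library Mut 1 of 8 dpf, 1077 without Mut 2 of 8 dpf and 1074 without Mut 2 of 5 dpf. Among the 18606 ids used for the mutants the change was lower in Mut in 1250 (6.72%) and higher in Mut in 386 (2.07%). Of the 1250, 1090 were above WT at 5 dpf and below WT at 8 dpf, and 91 were above WT at both ages. Over all 18606 ids these numbers were 4275 and 5133. The 1250 were chosen by the same difference, which favours this crossing, so the 1090 describe them and test nothing. Of the 386, 339 crossed the other way, beside 4606 of all 18606 ids. In 265 ids that differed, the Mut libraries were all lower at 8 dpf than at 5 dpf while the WT libraries were all higher. The 386 and the 265 were picked by the same difference, so these numbers too are a description. How many of all ids showed the order of the 265 was not computed.

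Of the 1019 falls in Mut, 93 (9.13%) were lower and 6 (0.589%) higher than the change in WT by this test, beside 6.72% and 2.07% of all 18606 ids. Of the 745 falls shared with WT, 26 (3.49%) were lower and 6 (0.805%) higher. These shares are a description, since the falls were chosen by the same changes. Among all ids past 4-fold the 6 of largest difference below WT were 5 falls, zgc:85843, the insulin gene ins, tfcp2l1, si:dkey-96g2.1 and agt, and the rise of si:ch211-199o1.2. For tfcp2l1, a transcription factor gene of transporting epithelia, the values were 99.6, 54.9 and 63.9 in Mut at 8 dpf and 379.8, 415 and 541 in Mut at 5 dpf. In WT they were 138, 69.2 and 113 at 8 dpf and 85.9, 69.3 and 148 at 5 dpf. Only the Mut libraries of 5 dpf stood apart from the rest. The difference was -2.70 ± 0.41 for tfcp2l1 (SE; limma, adjusted p = 0.000719), -3.30 ± 0.54 for zgc:85843 (adjusted p = 0.00301) and -2.28 ± 0.27 for si:dkey-96g2.1 (adjusted p = 0.000227). For agt it was -2.04 ± 0.35 (limma, adjusted p = 0.00549), a call lost with eBayes without trend (adjusted p = 0.0503).

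The insulin gene and both glucagon genes fell in Mut, and by more than in WT. The values of ins (ENSDARG00000035350) were 30.6, 44.8 and 29 in Mut at 8 dpf, against 554, 724 and 600.4 in Mut at 5 dpf, or 17.8-fold less. In WT they were 67.3, 110.4 and 109 at 8 dpf and 172, 134 and 399.8 at 5 dpf. The difference between the changes was -2.97 ± 0.41 (SE; limma, adjusted p = 0.000218), with Mut highest of the 4 groups at 5 dpf and lowest at 8 dpf. The glucagon gene gcgb had 37.6, 39.7 and 30.7 in Mut at 8 dpf and 165.5, 282 and 219 in Mut at 5 dpf. Its change was below that of WT by -1.75 ± 0.34 (limma, adjusted p = 0.00321).

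The other glucagon gene, gcga, also fell, with 40.2, 26.2 and 20.4 in Mut at 8 dpf and 211, 280 and 239.9 in Mut at 5 dpf (difference -1.54 ± 0.39, SE; limma, adjusted p = 0.0222). That call was lost with eBayes without trend (adjusted p = 0.0603), and without Mut 2 of 5 dpf, Mut 2 or Mut 3 of 8 dpf, WT 2 of 5 dpf, or WT 1 or WT 3 of 8 dpf, with adjusted p from 0.0525 to 0.111. Leaving out Mut 3 or WT 3 of 8 dpf amounts to the same check, since the batch term absorbs whichever stays. In all, 4 of the 6 hormone genes used had a lower change in Mut by the test, where 6.72% of all ids used did. The number was 2 without trend, without Mut 2 of 5 dpf, Mut 2 or Mut 3 of 8 dpf, WT 2 of 5 dpf or WT 3 of 8 dpf. All 6 were above WT at 5 dpf, and 3 of them also at 8 dpf. Of all 18606 ids 5133 were above WT at both ages and 4275 at 5 dpf only. Peptide YY, pyya, was higher at 8 dpf in both genotypes, with log2 changes of 1.18 in Mut and 1.098 in WT.

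Most genes of cholesterol synthesis and uptake changed differently in Mut and WT. Of 30 genes 23 had a lower change in Mut than in WT by the test and 0 a higher one, where 6.72% of all ids used were lower. The median log2 change was -1.18 in Mut and 0.23 in WT. Past 4-fold 2 of the 30 (6.67%) fell in Mut, beside 5.48% of all ids, or 0 without rescaling or with median-of-ratios size factors. An early enzyme of the pathway, hmgcs1 (HMG-CoA synthase), had 1139.8, 988.5 and 1096 in Mut at 8 dpf, against 2858, 2614 and 1965.5 in Mut at 5 dpf. In WT it had 3079.5, 2584 and 2747 at 8 dpf, against 986.5, 1324 and 1649.6 at 5 dpf. So the Mut libraries of 8 dpf were all below those of 5 dpf and the WT libraries of 8 dpf all above, and the changes differed by -2.28 ± 0.20 (SE; limma, adjusted p = 4.28e-06).

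The later steps showed the same crossing. Squalene epoxidase, sqlea, had 146, 142 and 163 in Mut at 8 dpf and 357, 333 and 222 in Mut at 5 dpf, with 614, 495 and 491 in WT at 8 dpf and 108.5, 204 and 218 in WT at 5 dpf. For lss, which closes the sterol rings, the log2 change was -1.53 in Mut and 1.299 in WT (difference -2.81 ± 0.34, SE; limma, adjusted p = 5.41e-05). For cyp51, which takes a methyl group off lanosterol, it was -1.30 in Mut and 1.23 in WT (difference -2.51 ± 0.23, SE; limma, adjusted p = 6.39e-06). Of the 30 genes 22 were above WT at 5 dpf and below WT at 8 dpf, where 4275 of all 18606 ids were. The list's median log2 Mut over WT was -0.94 at 8 dpf and 0.33 at 5 dpf. The low density lipoprotein receptor gene ldlra, which fell past 4-fold in Mut, had log2 changes of -2.17 in Mut and -2.37 in WT, and the difference did not pass the test (limma, adjusted p = 0.507).

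Chaperones of the endoplasmic reticulum and of heat shock showed the pattern in part. Of 52 genes 28 (53.8%) had a lower change in Mut than in WT and 0 a higher one, where 6.72% and 2.07% of all ids used did. The rescaled median was -0.52 in Mut and 0.31 in WT. Without rescaling it was -0.034 in Mut and was not computed in WT. The chaperone gene hyou1 had 836, 857 and 856 in Mut at 8 dpf, against 2363, 2218 and 2067 in Mut at 5 dpf, with 1263, 1351 and 1299 in WT at 8 dpf and 1079.5, 1068 and 1192 in WT at 5 dpf. The Mut libraries of 5 dpf were the highest and those of 8 dpf the lowest of the 4 groups, each set tight, and the difference was -1.59 ± 0.10 (SE; limma, adjusted p = 5.62e-08). For manf, a secreted protein induced by misfolded proteins in the endoplasmic reticulum, the log2 change was -1.33 in Mut and 0.78 in WT (difference -2.09 ± 0.15, SE; limma, adjusted p = 3.40e-06). The calreticulin gene calr3b fell past 4-fold in Mut, with log2 changes of -2.12 in Mut and -1.01 in WT (difference -1.09 ± 0.15, SE; limma, adjusted p = 0.000371).

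Aminoacyl-tRNA synthetases of the cytosol charge tRNAs and are induced when amino acids run short. Of 23 genes of the synthetases and their complex 20 (87%) differed, all lower in Mut. Among the 23 were both ids of AIMP1, a protein of the complex that is not itself a synthetase, and neither differed (limma, adjusted p = 0.098 and 0.18). Of all ids used 6.72% had a lower change in Mut. The rescaled median change of the 23 genes was 0.005 in Mut and 0.71 in WT. Without rescaling it was 0.49 in Mut and was not computed in WT. Lysyl-tRNA synthetase, kars, had 7464, 6583 and 6706 in Mut at 8 dpf and 11597, 10129 and 8373 in Mut at 5 dpf, with 5605.5, 5965 and 6079.5 in WT at 8 dpf and 3754, 3830.5 and 3854.5 in WT at 5 dpf. Of the 23 genes 19 were above WT at both ages, where 5133 of all 18606 ids were. Another 3 were above WT at 5 dpf and below it at 8 dpf, WARS among them. The list's median log2 Mut over WT was 0.23 at 8 dpf and 0.93 at 5 dpf. The difference for kars was -1.13 ± 0.12 (SE; limma, adjusted p = 1.63e-05), and for the threonyl synthetase gene tars -1.19 ± 0.11 (adjusted p = 3.58e-06). The tryptophanyl gene WARS was higher at 8 dpf in both genotypes, by 0.64 in Mut and 1.87 in WT.

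Of 44 genes of the amino-acid response, of serine and of one-carbon metabolism 15 (34.1%) had a lower and 1 a higher change in Mut than in WT. Of all ids used 6.72% had a lower and 2.07% a higher change. The rescaled median change of the 44 genes was -0.33 in Mut and -0.03 in WT. Without rescaling it was 0.15 in Mut and was not computed in WT. ALDH1L1, a folate dehydrogenase gene, fell past 4-fold in Mut, with 609.6, 499 and 478 in Mut at 8 dpf and 4658, 4172 and 4588 in Mut at 5 dpf, and by a log2 difference of -1.01 ± 0.14 more than in WT (SE; limma, adjusted p = 0.000314). The mitochondrial enzyme gene mthfd1l also fell past 4-fold, with 190.4, 175 and 149 in Mut at 8 dpf and 809.8, 853 and 668 in Mut at 5 dpf. In WT it had 72.3, 87 and 97.6 at 8 dpf and 202, 214 and 305 at 5 dpf, so that Mut was above WT at both ages. The difference between the changes did not pass the test (limma, adjusted p = 0.0642).

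Among the substrates and partners of Mia40, 17 of 39 twin-cysteine and pathway genes (43.6%) had a lower change in Mut than in WT and 0 a higher one. Of all ids used 6.72% had a lower change. None of the 39 passed 4-fold with age. The median was 0.16 in Mut and 0.59 in WT. The small Tim chaperone gene timm10, a classical substrate in yeast, had 658, 688 and 812 in Mut at 8 dpf and 425, 491 and 456 in Mut at 5 dpf, with 1096, 1004 and 876 in WT at 8 dpf and 316, 353 and 339 in WT at 5 dpf (difference -0.89 ± 0.16, SE; limma, adjusted p = 0.00286). The cytochrome c oxidase subunit gene cox6b1 went the opposite way in the 2 genotypes, with 593, 584 and 532 in Mut at 8 dpf and 988, 996 and 884 in Mut at 5 dpf, and 769, 691 and 810.2 in WT at 8 dpf and 538, 442 and 622 in WT at 5 dpf. Of the 39 genes 38 were above WT at 5 dpf, and 21 of these were below WT at 8 dpf. Of all 18606 ids 4275 were above WT at 5 dpf and below it at 8 dpf, and 5133 were above it at both ages. Of the 13 genes of the mitochondrial genome 0 differed by the test. Their rescaled median was -0.25 in Mut and -0.15 in WT. That in Mut was 0.24 without rescaling and 0.003 with median-of-ratios size factors, and neither was computed in WT.

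Genes of DNA replication and mitosis had a lower change in Mut in 41 of 70 (58.6%), where 6.72% of all ids used did, and a higher one in 0. Their rescaled median was -0.36 in Mut and 0.29 in WT, where the value in Mut lay close to the median of all ids. Without rescaling the median was 0.12 in Mut and was not computed in WT. The replication clamp gene pcna had 5812, 5329 and 5347.5 in Mut at 8 dpf and 4945, 5053 and 4585 in Mut at 5 dpf, with 7608, 9118 and 8718.5 in WT at 8 dpf and 3741, 4186 and 3772 in WT at 5 dpf (difference -0.92 ± 0.10, SE; limma, adjusted p = 2.08e-05). All 3 WT libraries of 8 dpf were above every Mut library.

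Crystallins of the lens made the widest gap of any list. Of 47 crystallin and lens fibre genes 34 (72.3%) had a lower change in Mut, where 6.72% of all ids used did, and 0 a higher one. The rescaled median was -0.14 in Mut and 1.72 in WT. Without rescaling it was 0.345 in Mut and was not computed in WT. The median log2 Mut over WT was -1.65 at 8 dpf, with all 47 genes below WT, and -0.005 at 5 dpf, with 23 genes above WT and 24 below. Of all 18606 ids 4275 were above WT at 5 dpf and below it at 8 dpf, and 4592 were below WT at both ages. In Mut 16 of the 47 genes were lower and 4 higher at 8 dpf with no overlap, where 50.4% and 22.1% of all ids were. Taken by library, the list's median change in Mut ran from -0.788 to 0.352. The gamma-crystallin gene crygm5 had 51.5, 63.4 and 95.4 in Mut at 8 dpf and 180.5, 196 and 227 in Mut at 5 dpf, with 197, 208 and 122.5 in WT at 8 dpf and 46.5, 113 and 147 in WT at 5 dpf (difference -2.42 ± 0.44, SE; limma, adjusted p = 0.00181). A related gene, crygm7, overlapped between the genotypes at 8 dpf, with 75.1, 125 and 144 in Mut and 182, 110.4 and 96.7 in WT, and was far higher in Mut at 5 dpf, with 68.9, 71.5 and 65 in Mut and 6, 2.5 and 6.2 in WT. The minimum mean was set on the Mut libraries alone, so these very low WT values of crygm7 were kept. The size of its difference rests on them and is uncertain. Many gamma-crystallin genes are near-identical copies, and the authors left out reads aligned to several places, so single members are uncertain. The lens water channel gene mipa fell past 4-fold, with 154, 149 and 181 in Mut at 8 dpf and 1880.4, 1461 and 1695 in Mut at 5 dpf, and more than in WT (difference -1.16 ± 0.22, SE; limma, adjusted p = 0.00275).

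**Figure D4:**
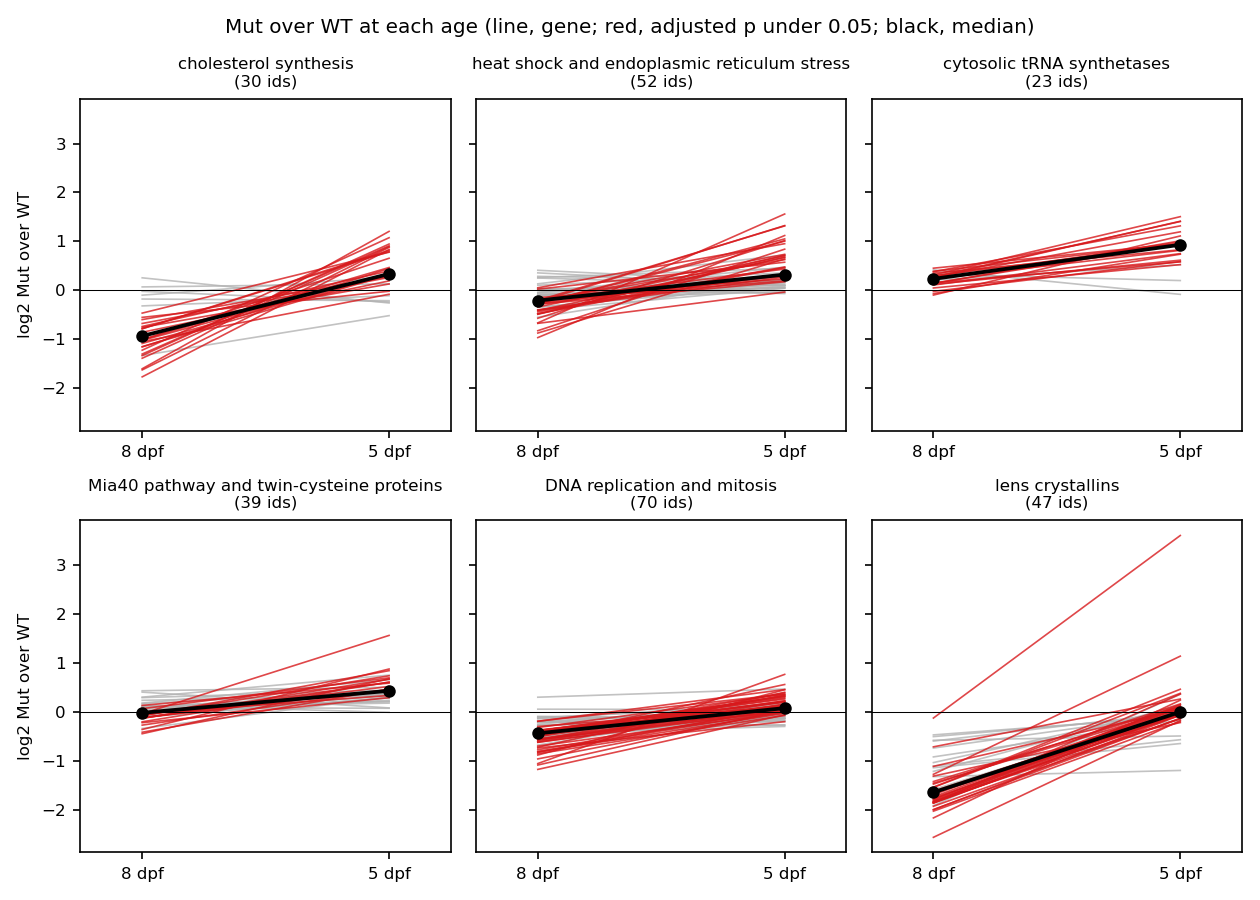
Log2 Mut over WT at 8 dpf and at 5 dpf for the members of 6 gene lists, each line a gene, red where its change differed between Mut and WT by the test, and black for the list's median. The medians are lower at 8 dpf than at 5 dpf in all 6 panels, with that of the tRNA synthetases still above 0 at 8 dpf and that of the crystallins furthest below.

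Fewer genes kept a higher change in Mut than in WT. Among the changed ids, those of largest positive difference were all falls that were shallower in Mut. The mitochondrial carrier gene SLC25A48 had 126, 125 and 115 in Mut at 8 dpf and 583, 489.7 and 526 in Mut at 5 dpf, with 76.5, 78.6 and 85.2 in WT at 8 dpf and 818, 731 and 765 in WT at 5 dpf (difference 1.16 ± 0.17, SE; limma, adjusted p = 0.000961). The collagen gene col5a2b had a difference of 2.07 ± 0.39 (limma, adjusted p = 0.00794), which was lost without Mut 3 or WT 3 of 8 dpf (adjusted p = 0.0587 and 0.0544). These removals are the same check, with an estimate of 1.911 in each. The matrix gene FREM1 (1.48 ± 0.33, limma, adjusted p = 0.0201), tmem86a (1.16 ± 0.30, adjusted p = 0.0279) and si:dkey-26m3.3 (0.90 ± 0.26, adjusted p = 0.042) were each lost without several libraries, among them Mut 1 of 8 dpf for all 3 (adjusted p = 0.0975, 0.118 and 0.0983).

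Of the 45 liver genes 10 (22.2%) had a lower and 4 a higher change in Mut than in WT, where 6.72% and 2.07% of all ids used did. The number lower was 4 with eBayes without trend, and 3 to 6 without Mut 1 or Mut 3 of 8 dpf, WT 2 of 5 dpf, or WT 1 or WT 3 of 8 dpf. Mut 3 and WT 3 of 8 dpf are again the same check. Of the 4, ahsg1 and itih3b are given here, chosen after their values were seen. The fetuin gene ahsg1 had 139.7, 220.5 and 149.9 in Mut at 8 dpf, against 47.6, 62.1 and 43.7 in Mut at 5 dpf. In WT it had 381.5, 274 and 379.8 at 8 dpf, against 817, 630 and 1020.4 at 5 dpf. It was lower in Mut at both ages, the gap closing by 2.96 ± 0.30 on the log2 scale (SE; limma, adjusted p = 1.54e-05). The inhibitor chain gene itih3b had 76.9, 87.9 and 69 in Mut at 8 dpf and 233, 233 and 246 in Mut at 5 dpf, with 119, 136 and 151 in WT at 8 dpf and 2052, 1921 and 2904.5 in WT at 5 dpf (difference 2.47 ± 0.21, SE; limma, adjusted p = 4.28e-06). Of the 41 genes of fasting, fat oxidation and gluconeogenesis 4 (9.76%) had a lower change in Mut, with differences from -1.24 to -0.58, and 6 a higher one, from 0.41 to 2.00. Of all ids used 6.72% had a lower and 2.07% a higher change. The pyruvate dehydrogenase kinase gene pdk2b had 4784, 4838 and 3816 in Mut at 8 dpf and 1576, 1665 and 2264.5 in Mut at 5 dpf, with 2181, 1358 and 2181 in WT at 8 dpf and 2316.5, 1792 and 1619 in WT at 5 dpf (difference 1.34 ± 0.27, SE; limma, adjusted p = 0.00555). For cpt1b, which admits fatty acids into muscle mitochondria, the log2 change was 0.78 in Mut and 0.05 in WT (difference 0.76 ± 0.15, SE; limma, adjusted p = 0.00695). In both genes the Mut libraries of 8 dpf were the only ones set apart, and both calls were lost with eBayes without trend (adjusted p = 0.056 for pdk2b and 0.0582 for cpt1b).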

How the data were processed

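RNA-Seq libraries of 12 pools of 5 whole larvae were used as deposited. Per the labels and the methods of the study, stranded mRNA libraries were read as pairs of 75 bases, trimmed with Trimmomatic 0.33, aligned with STAR 2.4.0a to GRCz10 and counted per Ensembl gene with featureCounts 1.4.5-p1, leaving out reads that fitted several genes or places. The deposited score of a gene is its count normalised by the authors for library size and rounded, at 8 dpf after removal of a batch effect with edgeR 3.16.5. The batch at 8 dpf was read from the values, since the deviations of Mut 3 and WT 3 mirror each other (correlation -0.998). Read depth cannot be had from these scores, and the sums of scores stand in its place.

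The change in Mut was computed as stated in the report (mean of at least 20, equal totals over the ids used, pseudocount 1) with Python 3.11.15, numpy 2.4.6 and pandas 2.3.3. For the difference between genotypes, log2(score + 1) of ids with a combined mean of at least 5 was fitted per age with limma 3.58.1 in R 4.3.3 (eBayes with trend, two-sided, total degrees of freedom 10.2 at 5 dpf and 8.04 at 8 dpf), with genotype at 5 dpf and genotype and batch at 8 dpf. The difference of the log2 fold changes was divided by its standard error, with Satterthwaite degrees of freedom and Benjamini-Hochberg adjustment, and called at an adjusted p under 0.05. On simulated data with 200 genes changed by 1.5 log2 units among 20587, 189 were recovered with 12 false calls. The simulated pools had the same dispersion for every gene and no batch effect, and the changed genes were not of low level. The check therefore does not give the error rate on the real pools, some of which varied more. The study's methods state that the 5 dpf pools were gathered and handled together, and those of 8 dpf at different times. No label ties single pools to clutches or days, so p values measure the spread between these pools. Figures were drawn with matplotlib 3.10.9.

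Symbols came from a table of Ensembl ids and the study's tables. Written in capitals, a symbol is that table's and may serve several ids. Named were chchd4a and chchd4b, the 12 largest rises and falls with a symbol, the 4 members of largest change and those past 4-fold of each list described, the 6 largest differences from WT each way among ids past 4-fold, and the 10 ids of highest value, except for a few genes that are not reported here. The genes abcb11b, ahsg1, cpt1b, crygm5, crygm7, cyp51, ela2l, fabp10a, fetub, hmgcs1, hyou1, itih3b, lss, manf, pcna, pdk2b, sqlea, tars and tfa, and those outside the filter, were named after their values were seen. Members and lists were chosen with earlier results of these data known. Columns of the study's own fold changes and p values were not used. Alternatives were other pseudocounts, filters, scalings, thresholds and models, the replicate block, and leaving out each library.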

Additional observations from a re-analysis of the deposited data

Results flagged for a closer look

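The results singled out here are named genes whose change from 5 to 8 dpf differed between Mut and WT by the test of the difference itself (limma, adjusted p under 0.05). There were 38, and 30 of them stayed under 0.05 in each of the alternative fits at that threshold. Values are the change in Mut minus the change in WT, on the log2 scale.

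Hormone genes of the endocrine pancreas were at -2.97 for ins, -1.75 for gcgb and -1.54 for gcga. Sterol synthesis genes were at -2.81 for lss, -2.61 for sqlea, -2.51 for cyp51 and -2.28 for hmgcs1. The bile salt pump gene abcb11b was at -2.00. Chaperone genes were at -2.09 for manf, -1.59 for hyou1, -1.32 for hsp90aa1.1 and -1.09 for calr3b.

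Among mitochondrial import genes chchd4a was at -1.60, cox6b1 at -1.24 and timm10 at -0.89. The tRNA synthetase genes WARS, tars and kars were at -1.21, -1.19 and -1.13, and the folate gene ALDH1L1 at -1.01. The lens genes crygm7, crygm5 and mipa were at -3.73, -2.42 and -1.16, the replication gene pcna at -0.92 and the troponin gene tnni2a.1 at -1.42. Of other genes, zgc:85843 was at -3.30, tfcp2l1 at -2.70, si:ch211-199o1.2 at -2.49, si:dkey-96g2.1 at -2.28 and agt at -2.04.

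Positive differences were 2.96 for ahsg1, 2.47 for itih3b, 2.07 for col5a2b, 1.48 for FREM1, 1.34 for pdk2b, 1.16 for tmem86a, 1.16 for SLC25A48, 0.90 for si:dkey-26m3.3 and 0.76 for cpt1b.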

How the results depend on the processing

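Counts of ids past 4-fold with no overlap in Mut (1053, of which 1019 lower and 34 higher at 8 dpf) moved by more than 1.5 times with the threshold and the scaling. They were 4013 (3672 and 341) at 2-fold and 286 (281 and 5) at 8-fold, 420 (414 and 6) at a minimum mean of 100, and 637 (543 and 94) without rescaling. Higher ids numbered 233 without a minimum and 59 with median-of-ratios size factors. Leaving out each Mut library gave 1000 to 1111 (971 to 1080 lower, 29 to 38 higher).

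For the difference from WT (1666 ids, 1266 lower and 400 higher in Mut) the counts were 898 (699 and 199) with eBayes without trend and 738 (623 and 115) at an adjusted p under 0.01, and higher ids numbered 663 without the batch term. Leaving out each library gave 1055 to 1770 (836 to 1287 lower, 180 to 483 higher). With Mut 3 or WT 3 of 8 dpf left out, the batch term absorbs the other, so these removals give the same estimates. With the replicate number as a block 1181 ids differed, 254 of them higher in Mut. The numbers do not pair the pools, since the deviations of same-numbered Mut and WT pools correlated at -0.277, -0.145 and -0.088 at 5 dpf. No named change or difference turned its sign while called. Without trend, 16 of 47 lens genes differed in place of 34. The scores keep no read depth, so counting error is not known, and a value in Mut at 8 dpf near 20 is the least certain. With 3 pools a group, a difference that missed the threshold was not shown to be absent.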

Other observations

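Some genes left the described set at the filter. Of the ids in both tables, 660 had a Mut mean below 20 only at 8 dpf and 624 only at 5 dpf. The largest of the first kind after slc15a1b was SLC6A19 (ENSDARG00000091560), an amino acid carrier gene of the gut, with deposited values of 15, 21 and 10 in Mut at 8 dpf and 1399, 1171 and 1146 in Mut at 5 dpf. Of the second kind, si:ch211-120g10.1 had deposited values of 324, 325 and 308 in Mut at 8 dpf and 15, 16 and 18 in Mut at 5 dpf. Both were chosen after their values were seen.

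Of 16 hypothalamic, pituitary and thyroid hormone genes used, 6 were lower and 5 higher at 8 dpf in Mut with no overlap, where 50.4% and 22.1% of all ids were, and none passed 4-fold. Their median rank was 11531 at 8 dpf and 14991 at 5 dpf, and 0 differed from WT in their change by the limma test. The oxytocin gene oxt had 436, 390.3 and 418 in Mut at 8 dpf and 99, 112.5 and 109.9 in Mut at 5 dpf, a log2 change of 1.94 in Mut and 1.86 in WT. For NPY, a neuropeptide gene that promotes feeding, the log2 change was 1.39 in Mut and 1.07 in WT. Of 41 proteasome genes 40 were above WT at 5 dpf and below WT at 8 dpf, where 4275 of all 18606 ids were. In 8 of the 41 (19.5%) the change was lower in Mut by the test, where 6.72% of all ids used were. The number was 1 without Mut 1 of 8 dpf. Without Mut 3 or WT 3 of 8 dpf, which is the same check, it was 29.

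A further 178 ids with a mean of at least 100 in Mut at 5 dpf have no value at 8 dpf here, among them the prothymosin gene ptmab (12134, 13533 and 13119 in Mut at 5 dpf) and the chaperonin gene CCT2 (2640, 3181 and 2833 in Mut at 5 dpf). Of these, 140 (78.7%) carry an Ensembl number from ENSDARG00000097000 upward, against 17.0% of the ids with a value at 8 dpf and 25.5% of those at 5 dpf. They were not counted as falls, and whether the 2 ages were counted over the same gene models was not tested.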
